A study of Mus musculus with 1003 samples.

Results

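Cluster 1 is a group of 75 single cells from the embryonic mouse gut, taken here as every cell that the authors' labels assign to that cluster, out of 1003 cells in the series. All 75 were of embryonic day E12.5, 13 from RetCFP/+ and 62 from RetCFP/CFP embryos, and 74 of them were predicted by the authors as progenitor/glia cells. They were described against the other 446 progenitor/glia cells of E12.5, 273 RetCFP/+ and 173 RetCFP/CFP. None of the 358 cells of E14.5 carried the label, which allows a share of up to 0.838% there by the limit of 3 cells of the total.

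The series asks what loss of Ret does to the progenitors of the enteric nervous system. Both genotypes carry at least 1 Ret allele with a cyan fluorescent protein (CFP) cassette in exon 1, made by removing a floxed human RET9 cDNA with β-actin-Cre, so RetCFP/+ embryos keep 1 intact copy of Ret and RetCFP/CFP embryos none. All cells were sorted for CFP from dissociated whole gut, that is stomach, foregut and hindgut, of male and female embryos, so only cells that made CFP were sampled in either genotype. The RNA was read by a modified Smart-seq2 protocol. Levels are the authors' estimated transcripts per cell, averaged over the cells of 1 source plate. Each of the 8 plates of E12.5 held 1 genotype and sex and was taken as 1 embryo, which is a deduction. Replicate 1 stands for library batch HD01 and replicate 2 for batch HD02.

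Enteric neural crest cells migrate into and along the gut, divide, and give rise to the neurons and glia of the gut wall. Progenitors are known for Sox10, Ednrb and Ret, and Ret encodes the receptor that takes up signals of the growth factor GDNF. D-type cyclins drive cells through the G1 phase of the cell cycle, whereas the genes of the mitotic machinery are switched on late, in the G2 and M phases.

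Cluster 1 was unevenly spread over plates. In batch HD01 it held 0 of 69 progenitor/glia cells in the RetCFP/+ male and 0 of 73 in the RetCFP/+ female, which allows shares of up to 4.35% and 4.11% by the limit of 3 cells of the total (exact two-sided 95% limits 5.21% and 4.93%). In the same batch it held 11 of 82 cells (13.4%, exact Clopper-Pearson 95% interval 6.89 to 22.7) in the RetCFP/CFP male and 4 of 53 (7.55%, 2.09 to 18.2) in the RetCFP/CFP female. The 11 and the 82 include the 1 cluster 1 cell predicted as a neuron. In batch HD02 it held 7 of 66 cells (10.6%, 4.37 to 20.6) in the RetCFP/+ male and 6 of 78 (7.69%, 2.88 to 16.0) in the RetCFP/+ female. The RetCFP/CFP male of that batch had 10 of 28 (35.7%, 18.6 to 55.9) and the RetCFP/CFP female 37 of 72 (51.4%, 39.3 to 63.35). Within each batch both RetCFP/CFP plates therefore lay above both RetCFP/+ plates, but RetCFP/CFP female replicate 1 lay below both RetCFP/+ plates of the other batch.

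**Figure D1:**
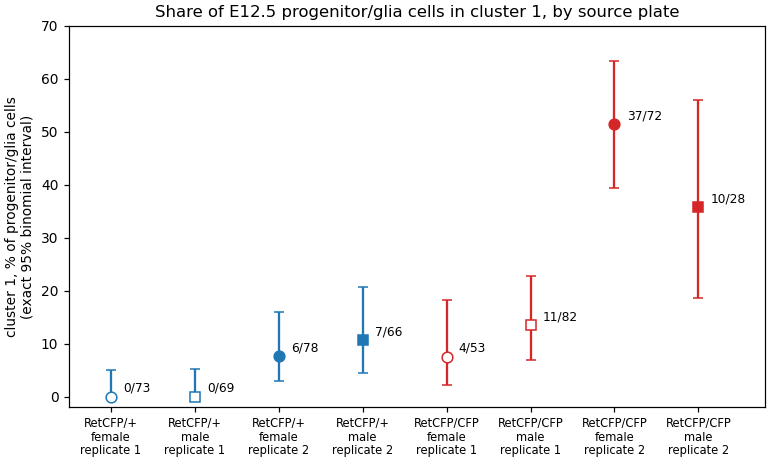
Cluster 1 cells in percent of cluster 1 and other progenitor/glia cells of E12.5 together (y axis), for each source plate (x axis). Squares are males, circles females, open symbols batch HD01, filled symbols batch HD02, and bars are exact 95% binomial intervals. The 4 RetCFP/+ plates lie between 0 and 10.6% and the 4 RetCFP/CFP plates between 7.55% and 51.4%.

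The mean share was 4.57% ± 5.41 in RetCFP/+ and 27.0% ± 20.3 in RetCFP/CFP (SD, n = 4 plates each), a difference of 22.4 percentage points. Leaving out RetCFP/CFP female replicate 2, the source of 37 of the 75 cells, brought it to 14.3. No test was attached to the shares, because Myl9, one of the genes that lead cluster 1, itself differs between the genotypes outside it, as described below. The intervals cover counting error only.

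Libraries of the 2 batches differed in depth of detection. Plate medians of detected genes ran from 4889.5 to 6646 in cluster 1 and from 4175 to 7055 in the other progenitor/glia cells, with the HD02 plates higher in both. Averaged over plates, cells of cluster 1 had 1034820 reads and the others 983327. Within plates, cluster 1 cells had 51488 more reads on average, less than the spread of 172225 (SD, n = 6 plates, exact two-sided sign-flip permutation p = 0.594, adjusted 0.891). The share of aligned reads was 86.0% in cluster 1 and 85.3% in the others (higher in 5 of 6 plates, exact permutation p = 0.281, adjusted over 3 measures 0.844). The smallest p that 6 plates allow is 0.0313. All wells of cluster 1 held 1 cell.

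Ret itself was read first, since it checks the labels. Ret lies on the minus strand of GRCm38 chromosome 6, from 118151745 to 118197718. In cluster 1 it stood at 5.28 and 3.94 transcripts per cell in the RetCFP/+ female and male of replicate 2, and at 0.166, 0.211, 0.257 and 0.382 in the 4 RetCFP/CFP plates. The genotypes did not overlap, and Ret passed 1 transcript in 12 of the 13 cells with an intact copy and in 3 of the 62 without. The log2 change within cluster 1 was -2.20 (SE 0.167, limma adjusted p 8.19e-06), and outside it -1.96 (SE 0.126, adjusted p 7.83e-07). The CFP reporter, tCFP, passed 1 transcript in 13 of 13 and 60 of 62 cells of the respective genotypes. Its change within cluster 1 was -0.26 (SE 0.252, adjusted p 0.632).

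The cells carried the defining genes of enteric progenitors. Sox10, a transcription factor of neural crest and glia, stood at 3.83 ± 0.382 in cluster 1 against 3.06 ± 0.705 in the other cells of the same plates (SD over 6 plates). Ednrb, the endothelin receptor of migrating crest cells, stood at 21.6 ± 8.08 against 15.8 ± 6.05. Both genes were higher in cluster 1 in all 6 plates. Sox10 was not higher than in each single cluster, since it stood at 4.05 ± 0.504 in cluster 2, 4.38 ± 1.68 in cluster 3 and 0.314 ± 0.255 in cluster 6, and Ednrb at 18.4 ± 6.68, 14.2 ± 7.66 and 2.95 ± 2.15. Of the 21 genes in the list of enteric neural crest identity, 15 reached a mean of 1 transcript in either class, with a median log2 difference of 0.11.

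Markers of other cell types of the gut were low in cluster 1. The 19 genes of gut mesenchyme summed to 0.00152 to 0.443 transcripts per cluster 1 cell over the 6 plates and to 0.126 to 1.91 in the other cells, and 8 of the 19 were at 0 in every cluster 1 cell. The 9 smooth muscle genes summed to 0.143 to 1.31 against 0.173 to 1.63, and the 6 pericyte genes to 0 to 0.113 against 0.0609 to 0.323. Mesothelium reached at most 0.4999 in a plate of cluster 1 and 0.424 in the other cells, endothelium 1.31 and 1.81, epithelium 0.174 and 5.21, and blood 0.0768 and 0.445. No member of these lists reached a mean of 1 transcript in either class. The 11 sympathoadrenal genes summed to 1.07 to 4.37 in cluster 1 and to 3.97 to 45.9 in the other cells.

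The 9 genes that mark the cluster in its definition were then read plate by plate. They were chosen on these cells, so their difference from the other cells is a description without a test. Over 6 plates with at least 3 cluster 1 cells, differences are on the scale log2(mean + 1), where 1 is the pseudocount, which understates the change of low genes. Of 4147 genes with a mean of at least 1 transcript in either class, 162 (3.91%) were higher and 215 (5.18%) lower in cluster 1 in every plate. Of the 9 markers, 6 were higher in every plate.

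Ccnd2, a D-type cyclin, had the largest difference. In cluster 1 its level was 23.4 and 30.8 in the RetCFP/+ female and male of replicate 2, 20.9 and 32.9 in the RetCFP/CFP females of replicates 1 and 2, and 21.8 and 32.0 in the males of replicates 1 and 2. In the other cells of these plates it was 9.05, 7.55, 7.24, 20.4, 11.03 and 17.1 in the same order. Every cluster 1 value therefore lay above every value of the other cells, in both genotypes, and the mean difference was 1.17 ± 0.448 (SD, n = 6 plates). More than 1 Ccnd2 transcript was found in 98.7% of cluster 1 cells, in 73.5% of the others and in 34.7% of the E12.5 neurons outside the cluster. Ccnd2 overlaps the antisense genes Gm43126 and 9330179D12Rik, and the counting is not stated to use strand.

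Gja1, which encodes the gap junction protein connexin 43, stood at 8.07 ± 2.31 in cluster 1 and 4.12 ± 2.10 in the others, a difference of 0.88 ± 0.470. Adamts1, a secreted protease of the extracellular matrix, was at 2.81 ± 1.72 against 1.27 ± 1.16, a difference of 0.75 ± 0.513. Gpc3, a cell surface proteoglycan, was at 14.2 ± 6.12 against 9.29 ± 5.63, a difference of 0.62 ± 0.476. All of these were higher in 6 of 6 plates. Pls3, an actin bundling protein, was at 11.5 ± 5.36 against 7.59 ± 4.95 and also higher in 6 of 6. The spread of these levels over plates was wide, and the ranges of cluster 1 and of the other cells overlapped for each of them.

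The remaining markers varied more. Myl9, a regulatory light chain of non-muscle and smooth muscle myosin, was at 0.809 and 3.40 in the RetCFP/+ female and male of replicate 2, and at 6.71, 8.30, 10.7 and 5.90 in the RetCFP/CFP female and male of replicate 1 and female and male of replicate 2. The other cells of these plates had 0.4659 and 0.753 in RetCFP/+ and 2.79, 2.47, 7.57 and 5.23 in RetCFP/CFP. Myl9 was thus higher in cluster 1 than in the other cells within each plate, while the other cells of 2 RetCFP/CFP plates lay above both RetCFP/+ cluster 1 values.

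Cnn2, the actin-binding protein calponin 2, was higher in cluster 1 in 5 of 6 plates (4.26 ± 2.85 against 1.98 ± 1.35). Mmp2, a matrix metalloprotease, was higher in 4 of 6 (1.80 ± 1.41 against 0.897 ± 0.755). Postn, which encodes the matrix protein periostin, was also higher in 4 of 6 (6.58 ± 4.25 against 5.33 ± 3.57), with a mean difference of 0.20 ± 0.554. For Postn the RetCFP/+ plates were the exceptions, with 2.36 and 2.42 in cluster 1 and 2.97 and 3.61 in the other cells. On the plates of batch HD02 alone the Postn difference turned to -0.12, whereas the other 8 markers kept a positive difference in all 11 alternatives run.

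**Figure D2:**
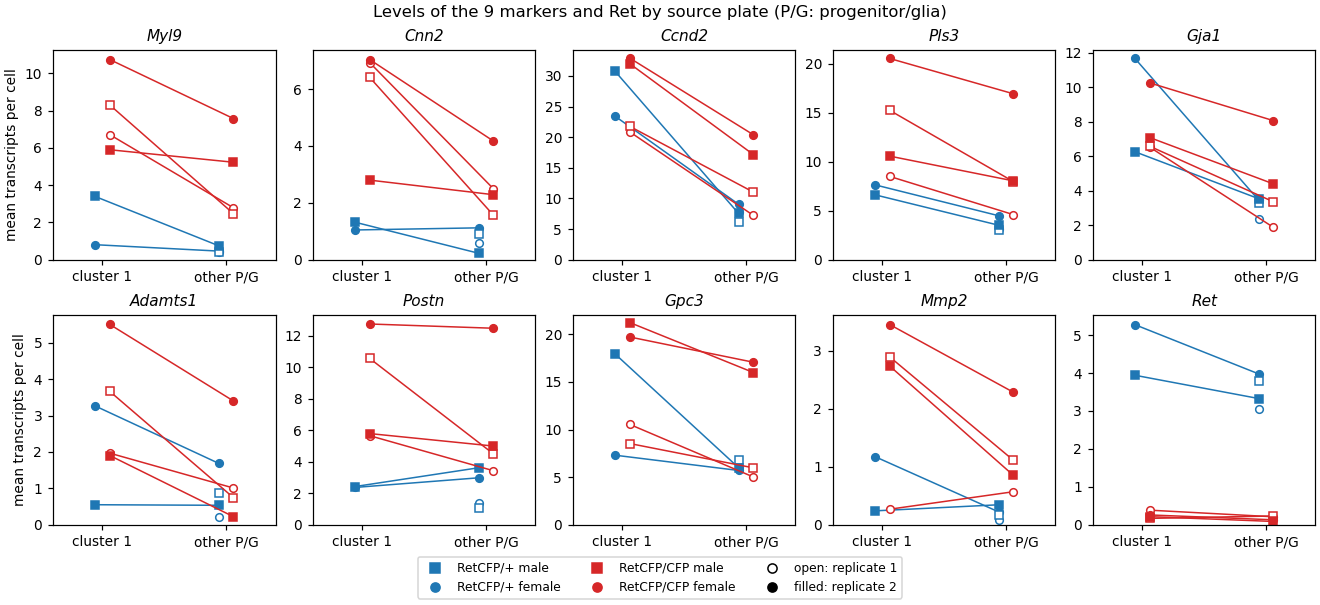
Mean estimated transcripts per cell (y axis, linear) of the 9 markers and Ret in cluster 1 and in the other progenitor/glia cells (x axis), 1 symbol per source plate with lines joining the same plate; blue is RetCFP/+, red RetCFP/CFP. Ccnd2 is higher in cluster 1 in all 6 plates with at least 3 cluster 1 cells, whereas Postn is lower in cluster 1 in both RetCFP/+ plates and Ret separates the genotypes.

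The markers were shared with other clusters to unequal degrees. Cluster 2, with 165 cells of E12.5 over 8 plates, had Ccnd2 at 10.7 ± 4.30, Gja1 at 5.33 ± 2.27 and Adamts1 at 1.52 ± 1.38. Its Postn level of 7.54 ± 5.60 was not below that of cluster 1 (6.58 ± 4.25, 6 plates), and its Myl9 was 4.06 ± 3.89 against 5.98 ± 3.52. Cluster 5, with 99 cells, had Ccnd2 at 14.0 ± 8.31, the nearest to cluster 1, but Postn at 1.14 ± 0.687 and Myl9 at 1.196 ± 1.08. Cluster 7, mostly neurons, had Ccnd2 at 0.660 ± 0.563. Ccnd2 and Gja1 were the markers whose level in cluster 2 lay more than 1 SD below that of cluster 1, and the other 7 lay within it.

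By the naming rule, the genes with the largest differences of 1 sign in every plate included several of the G1 phase of the cell cycle. Besides Ccnd2, Ccnd1 was at 15.04 ± 4.28 in cluster 1 against 8.499 ± 1.57 (difference 0.73), and Ccne1, the cyclin of the entry into S phase, at 4.86 ± 1.38 against 2.58 ± 1.04 (0.72). Ccnd1 overlaps the antisense gene LTO1. Ung, which removes uracil from DNA, was at 2.96 ± 0.763 against 1.09 ± 0.658 (0.96). Ccnd3 completed the D-type cyclins with 0.60 and was higher in 6 of 6 plates. Of the 20 genes of G1 cyclins, kinases and inhibitors, 11 passed the level filter, 5 of these were higher in every plate and 0 lower, and their median difference was 0.52, beside -0.00471 over all 4147 genes.

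Other genes named by that rule were Laptm5 (0.71), Pinx1 (0.67), Pcdh18 (0.64) and Serpinh1 (0.65). Laptm5 encodes a lysosomal membrane protein, Pinx1 an inhibitor of telomerase, Pcdh18 a protocadherin, and Serpinh1 the collagen chaperone HSP47. Serpinh1 was at 7.08 ± 1.79 against 4.21 ± 1.51 and above 1 transcript in all cluster 1 cells. Laptm5 was low, with 1.91 ± 0.629 against 0.786 ± 0.449.

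At the other end stood genes of G2 and mitosis. Ube2c encodes a ubiquitin-conjugating enzyme that works with the anaphase-promoting complex. In cluster 1 it was at 1.16 and 2.07 in the RetCFP/+ female and male of replicate 2, and at 0.672, 1.66, 1.90 and 1.22 in the RetCFP/CFP plates. The other cells of the same plates had 10.6, 12.49, 11.03, 6.59, 16.5 and 23.2. No cluster 1 value reached any value of the other cells, and the mean difference was -2.49 ± 0.653 (n = 6 plates). Ube2c overlaps the antisense gene Tnnc2.

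Spc25, a subunit of the kinetochore complex NDC80, was at 0.589 ± 0.373 against 6.37 ± 1.88 (-2.21). The mitotic kinase Aurka was at 0.273 ± 0.288 against 4.198 ± 1.55 (-2.01), and Aurkb at 0.281 ± 0.243 against 3.77 ± 1.29 (-1.88). Kpna2, an importin, differed by -1.97, the spindle protein gene Prc1 by -1.93 and the histone gene Hist1h2ao by -1.9996. All were lower in 6 of 6 plates. Histone genes are near-identical copies of each other, so the value of Hist1h2ao is uncertain, and Prc1 overlaps the antisense genes Rccd1 and 6330403N20Rik.

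Of the 52 genes of the G2/M list, 43 reached a mean of 1 in either class. All 43 had a negative mean difference, 21 were lower in every plate and 0 higher, and the median was -0.87. Cdk1, the kinase that drives entry into mitosis, was at 3.09 ± 1.17 against 13.1 ± 5.17 and still above 1 transcript in 60.0% of cluster 1 cells, against 63.5% of the others. Top2a was at -1.66, Nusap1 at -1.52 and Cdc20 at -1.15. The S phase list did not follow: of 41 genes 35 passed the level filter, 6 were higher in every plate (Ung, Dtl, Hells, Rpa2, Mcm2 and Cdca7) and 1 lower, with a median of 0.24. Low mitotic genes were not particular to cluster 1. Cluster 5 had Aurka at 0.371 ± 0.413, Cdk1 at 1.23 ± 0.805 and Top2a at 0.512 ± 0.434, where cluster 1 had 0.273, 3.09 and 1.16. Ube2c (3.62 ± 4.25 against 1.45) and the proliferation gene Mki67 (0.322 ± 0.256 against 0.192) were higher in cluster 5.

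**Figure D3:**
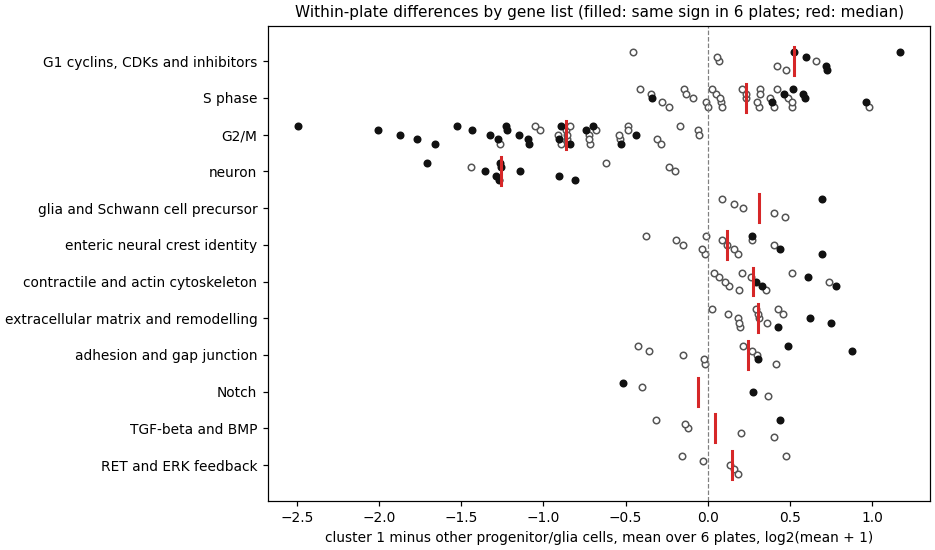
Mean within-plate difference between cluster 1 and the other progenitor/glia cells on the log2(mean + 1) scale (x axis) for the measured genes of 12 lists (y axis); filled points have the same sign in all 6 plates, and red bars are list medians. G2/M and neuron genes lie to the left of 0, with medians of -0.87 and -1.26, and the G1 list has its median at 0.52.

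Summed per cell, the S phase genes had a median of 155 transcripts in cluster 1 (68.3 to 245 without the lowest and highest 10%) and 93.5 in the other progenitor/glia cells (23.8 to 266). The G2/M genes had a median of 80.3 (37.0 to 199) against 132 (20.7 to 367). Within plates the mean G2/M sum was lower in cluster 1 in 6 of 6, for instance 55.7 against 201 in RetCFP/+ female replicate 2 and 118 against 244 in RetCFP/CFP female replicate 2. The mean S phase sum was higher in 5 of 6, the exception being RetCFP/CFP female replicate 2 with 144 against 188. Among the other progenitor/glia cells, those of cluster 2 had medians of 188 for S phase and 168 for G2/M, those of cluster 3 had 97.1 and 354, and those of cluster 5 had 59.5 and 37.0. These medians pool plates that differ by batch: the mean S phase sums of the other cells were 78.6 to 94.97 in the HD01 plates and 139 to 188 in the HD02 plates. Within HD02 the S phase sums of cluster 1 and the other cells were 180 and 163 in the RetCFP/+ male, 184 and 181 in the RetCFP/+ female, and 211 and 139 in the RetCFP/CFP male.

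**Figure D4:**
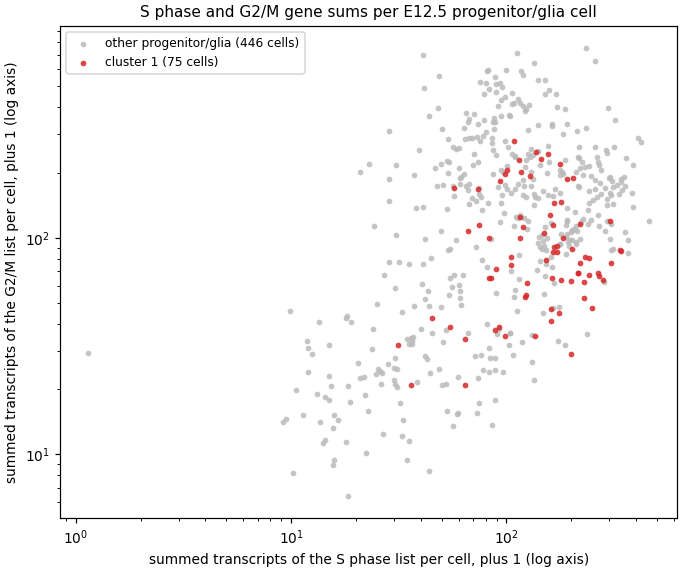
Summed estimated transcripts of the S phase list (x axis, log scale, plus 1) and of the G2/M list (y axis, log scale, plus 1) for each of 521 cells of E12.5; red points are the 75 cells of cluster 1 and grey points the other 446 progenitor/glia cells. The red points lie to the right of most cells of low sums and below the cells with the highest G2/M sums, with medians of 155 and 80.3.

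The promoters of 3 of these mitotic genes are shown because the G2/M genes were low together. The windows run from 250 bases before to 50 bases after the RefSeq start (GRCm38.p6). Capitals mark matches to the cell cycle homology region (TTTGAA or TTCGAA) and to CCAAT, on either strand.
Ube2c, chr2:164769679-164769978, plus strand: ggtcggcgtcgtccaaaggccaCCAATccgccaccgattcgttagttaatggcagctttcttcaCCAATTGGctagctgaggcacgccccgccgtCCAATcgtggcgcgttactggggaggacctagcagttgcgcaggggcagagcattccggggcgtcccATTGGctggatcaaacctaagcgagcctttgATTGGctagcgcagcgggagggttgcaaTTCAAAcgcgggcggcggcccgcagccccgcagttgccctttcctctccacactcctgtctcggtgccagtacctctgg
Spc25, chr2:69206164-69206463, minus strand: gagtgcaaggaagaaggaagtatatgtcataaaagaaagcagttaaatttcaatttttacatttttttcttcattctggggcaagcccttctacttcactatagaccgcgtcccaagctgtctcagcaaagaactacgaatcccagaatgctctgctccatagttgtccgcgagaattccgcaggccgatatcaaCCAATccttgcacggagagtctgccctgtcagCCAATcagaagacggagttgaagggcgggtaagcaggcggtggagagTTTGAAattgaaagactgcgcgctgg
Aurka, chr2:172370521-172370820, minus strand: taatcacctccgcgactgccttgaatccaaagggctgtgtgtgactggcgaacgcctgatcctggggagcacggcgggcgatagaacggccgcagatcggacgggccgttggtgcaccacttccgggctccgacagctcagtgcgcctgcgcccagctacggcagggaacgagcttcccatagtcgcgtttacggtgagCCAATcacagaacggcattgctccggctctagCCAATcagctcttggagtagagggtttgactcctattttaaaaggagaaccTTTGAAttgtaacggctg
In Spc25 and Aurka, a homology region match lay at 25 and 33 bases after the start, with CCAAT at -55 and -23 in Spc25 and at -51 and -19 in Aurka. In Ube2c it lay at -29 on the opposite strand, with 6 CCAAT matches upstream, of which the one at -186 and the one at -183 overlap.

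Of the 52 G2/M genes, 46 had a window in the RefSeq table, and 36 of these (78.3%) held a homology region match, against 21.7% of all 27025 genes with a window. For CCAAT the shares were 76.1% and 41.1%. Of the S phase list, 20.7% of 29 genes held the homology region match and 69.0% CCAAT. Over the genes lower in every plate, 34.1% of 167 held the homology region match, and over those higher in every plate 15.3% of 124, beside 17.9% of the 3212 genes with a window among the 4147. A match is a description of letters and not of a bound site.

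Cck, which encodes the peptide cholecystokinin, was the named gene with the largest difference. It was at 0.00796, 0.803, 0, 0, 0.634 and 3.04 transcripts in the cluster 1 plates and at 4.85 to 21.9 in the other cells of all 8 plates. The ranges did not overlap, yet Cck was above 1 transcript in only 21.7% of the other progenitor/glia cells and in 3 of 75 cluster 1 cells, so that its mean rests on few cells with high values. Of the 20 neuronal genes, 13 passed the level filter, 9 were lower in every plate and 0 higher, with a median of -1.26. Tubb3, a neuronal tubulin, was at 2.79 ± 2.99 against 9.25 ± 3.50, and Stmn2, a regulator of microtubules in neurons, at 0.0928 ± 0.177 against 1.90 ± 1.45. The comparison group includes 67 of the 105 cells of cluster 6, in which Tubb3 was at 33.1 ± 10.95, and their part in the difference was not tested.

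Lists of contractile, matrix and adhesion genes differed less. Of 25 contractile and actin genes, 14 passed the filter and all had a positive mean difference (median 0.28), 4 of them in every plate: Myl9, Pls3, Cald1 (0.33) and Myl6 (0.29). Of 42 matrix genes, 14 passed, with a median of 0.31, and 3 were higher in every plate (Adamts1, Gpc3 and the laminin chain gene Lama4 at 0.42). Of 20 adhesion genes, 12 passed, 7 with a positive and 5 with a negative mean difference and a median of 0.24, and the integrin genes Itga6 (0.49) and Itgb1 (0.31) joined Gja1 as higher in every plate. Of 15 genes of glia and Schwann cell precursors, 6 passed and all were positive, with a median of 0.31. Cdkn1c, an inhibitor of cyclin-dependent kinases, was at 35.8 ± 15.4 against 24.2 ± 14.0 but higher in 4 of 6 plates.

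Signalling lists were mostly below the level filter. Of 13 Notch genes 4 passed, with Hes1 higher in 6 of 6 plates (0.28) and the Notch ligand gene Dll1 lower in 6 of 6 (-0.52). Of 20 genes of TGF-beta and BMP signalling 6 passed, with a median of 0.04 and Tgfb2 higher in every plate (0.44). Of 16 RET and ERK feedback genes 6 passed, with a median of 0.15, and none had the same sign in every plate. Of 19 YAP target genes 1 passed, and of 21 genes linked to Hirschsprung disease 10, with a median of 0.10 and 2 higher in every plate. Gfra1, the GDNF co-receptor, was at 6.59 ± 1.21 against 5.77 ± 1.61. Of the 15 Hox genes of paralogues 1 to 5, Hoxd3 alone passed (3.01 ± 2.43 against 4.42 ± 2.47). The 20 genes of paralogues 6 to 13 summed to at most 0.141 in a cluster 1 plate and 1.64 in the other cells, and 14 of them were at 0 in every cluster 1 cell.

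Across the 521 cells, the genes whose levels followed the mean of the 9 markers most closely within plates were Mest (Pearson r 0.717) and Serpinh1 (0.706). Mest is an imprinted gene of mesodermal and growing tissue. Sparc (0.614), a matrix glycoprotein, Lmo4 (0.586), Slitrk6 (0.581) and Tagln2 (0.579) followed, then Gpr17, Lama4, the neurotrophin receptor gene Ngfr (0.539) and Hmga2 (0.533). The lowest values were those of Chrna3 (-0.549) and Tubb3 (-0.547). The marker mean also followed the number of detected genes (r 0.359), and the cells of a plate share its batch. Mest was at 73.2 ± 16.3 in cluster 1 and 48.6 ± 16.3 in the other cells, and at 69.6 ± 14.7 in cluster 2. It overlaps Copg2 and Mir335, among others.

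The genotypes were then compared within cluster 1. This rested on 2 RetCFP/+ plates with 7 and 6 cells, both of batch HD02, and 3 RetCFP/CFP plates with 11, 10 and 37 cells. RetCFP/CFP female replicate 1, with 4 cluster 1 cells, was left out of the fit. With the batch as a block and sex as a term, 61 of 5131 genes (1.19%) passed an adjusted p of 0.05 in limma, 38 (0.741%) higher and 23 (0.448%) lower in RetCFP/CFP. The median change of all genes was 0.06. The batch effect is informed by the other cells of HD01, since RetCFP/+ plates of that batch have no cluster 1 cell. The count fell to 2 without the block and to 2 in batch HD02 alone. It was 6 without RetCFP/CFP male replicate 1, 3 without RetCFP/CFP female replicate 2 and 34 without RetCFP/+ female replicate 2, but 187 without RetCFP/CFP male replicate 2 and 235 without RetCFP/+ male replicate 2.

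The higher genes included 4 of the 9 markers, beside 0.741% of all genes. The markers were chosen on a cluster in which 62 of 75 cells were RetCFP/CFP. That choice can itself favour genes higher in this genotype, so their p-values are no independent test. Myl9 rose by 1.83 (SE 0.358, adjusted p 0.0281), from 2.10 ± 1.83 (n = 2 plates) to 8.31 ± 2.42 (n = 3), and the plates did not overlap. Postn rose by 1.82 (SE 0.364, adjusted p 0.0291), from 2.36 and 2.42 to 5.78, 10.5 and 12.7. Cnn2 rose by 1.54 (SE 0.302, adjusted p 0.0281), from 1.05 and 1.32 to 2.80, 6.41 and 7.04. Mmp2 rose by 1.405 (SE 0.260, adjusted p 0.0242), from 0.238 and 1.18 to 2.74, 2.90 and 3.45. In cluster 1, 2 of 13 cells of the first genotype and 46 of 62 of the second passed 1 Mmp2 transcript. In RetCFP/CFP female replicate 1, outside the fit, Mmp2 was at 0.267, among the RetCFP/+ values, and with that plate its adjusted p was 0.178. Without the block the limma adjusted p of these 4 markers was 0.0625 to 0.0759. Of the 20 genes called in cluster 1 that the naming rule takes from the markers and the largest changes, 18 lost the call without the block, 15 without RetCFP/CFP male replicate 1, 17 of 19 without RetCFP/CFP female replicate 2 and 11 of 19 without RetCFP/+ female replicate 2.

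The other 5 markers did not pass the threshold. Pls3 changed by 1.15 (SE 0.318, adjusted p 0.0901), Adamts1 by 0.97 (adjusted p 0.226) and Gpc3 by 0.65 (adjusted p 0.380). Ccnd2 differed by 0.29 (SE 0.229, adjusted p 0.557) and Gja1 by 0.10 (SE 0.302, adjusted p 0.898). The markers with the largest difference between cluster 1 and the other cells, Ccnd2 and Gja1, were thus those with the smallest difference between genotypes inside it.

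The promoter windows of Myl9 and Cnn2 are shown because these actin-linked genes were called together and each held a CArG box, the element known for binding serum response factor, in capitals.
Myl9, chr2:156775214-156775513, plus strand: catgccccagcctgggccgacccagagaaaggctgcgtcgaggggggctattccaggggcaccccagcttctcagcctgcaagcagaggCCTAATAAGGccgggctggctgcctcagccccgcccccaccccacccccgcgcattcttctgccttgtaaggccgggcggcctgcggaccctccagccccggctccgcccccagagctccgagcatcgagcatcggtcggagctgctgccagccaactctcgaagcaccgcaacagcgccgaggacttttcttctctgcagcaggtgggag
Cnn2, chr10:79988350-79988649, plus strand: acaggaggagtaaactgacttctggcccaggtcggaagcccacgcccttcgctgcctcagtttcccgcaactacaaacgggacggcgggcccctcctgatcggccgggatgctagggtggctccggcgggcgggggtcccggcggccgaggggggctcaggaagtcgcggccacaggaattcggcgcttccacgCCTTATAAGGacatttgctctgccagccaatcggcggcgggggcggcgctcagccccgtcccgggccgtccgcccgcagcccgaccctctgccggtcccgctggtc
The box starts at -161 in Myl9 and at -56 in Cnn2, and reads as a match on both strands. It was found in 2 of 7 markers with a window (28.6%), in 4 of 22 contractile genes (18.2%) and in 1.81% of all genes with a window.

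Further genes rose within cluster 1. Anxa2, which encodes the membrane-binding annexin A2, rose by 1.87 (SE 0.330, adjusted p 0.0197), from 0.140 and 0.376 transcripts to 1.70, 3.63 and 4.44. Sox5, a transcription factor of neural crest, rose by 1.57 (SE 0.207, adjusted p 0.00317), from 1.03 and 2.00 to 4.31, 5.23 and 6.88. For both, each RetCFP/CFP plate lay above both RetCFP/+ plates. Anxa5 (1.13, adjusted p 0.0260), Tpm1 (1.16, adjusted p 0.0360), the collagen gene Col3a1 (1.11, adjusted p 0.0291) and the small heat shock protein gene Cryab (1.25, adjusted p 0.0312) were also called. Of the 16 contractile genes tested, 4 were called (Myl9, Cnn2, Tpm1 and Anxa2), all higher, beside 0.741% of all genes, and all 16 had a positive value with a median of 0.52. Of the 15 matrix genes, 3 were called higher (Col3a1, Postn and Mmp2) and 0 lower, with a median of 0.60. Among these calls Myl9, Cnn2, Postn and Mmp2 are markers from the definition of the cluster, so the counts of both lists are not independent of it. In the other progenitor/glia cells the medians of these lists were 0.39 and 0.40, with 3 and 1 genes called higher, beside 0.253% of all genes. Anxa2 overlaps Gm16144 and Sox5 overlaps several antisense transcripts.

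Shcbp1 rose by 1.32 (SE 0.183, adjusted p 0.00433), Racgap1 of the central spindle by 1.26 (adjusted p 0.0496) and the condensin subunit gene Ncapd2 by 0.93 (adjusted p 0.0291). Ncapd2 was the single called gene of the 46 tested in the G2/M list, beside 1.19% of all genes tested, and 42 of the 46 had a positive value with a median of 0.36. Of the 36 S phase genes tested 0 were called, with a median of 0.02. Fam198b (1.27) and the lipid enzyme gene Pcyt2 (1.25) completed the named genes, and Racgap1 lost its call in 14 of 19 alternatives. In RetCFP/CFP female replicate 1, outside the fit, Fam198b, Pcyt2 and Racgap1 were listed at 0 and Anxa5 was at 5.49, none of them above either RetCFP/+ value. For the G2/M list, 38 of the 46 genes also had a positive value in the other progenitor/glia cells. Their median there was 0.17 and 0 were called, beside 0.507% of all genes.

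Among the lower genes, Gsta4, a glutathione transferase, fell by 1.87 (SE 0.204, adjusted p 0.000473), from 7.40 and 7.73 to 1.04, 1.22 and 1.46. Gsta4 and Ret kept their call in the 20 and 19 alternatives that tested them. Hes1, a transcriptional repressor of the Notch pathway, fell by 1.02 (SE 0.183, adjusted p 0.02004), from 3.49 and 3.85 to 0.850, 1.07 and 1.60. The genotypes did not overlap for either gene. The tetraspanin gene Cd9 fell by 1.44 (adjusted p 0.0197) and the creatine kinase gene Ckb by 1.32 (adjusted p 0.0197).

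Some neuronal genes were among the lower ones. Elavl4, an RNA-binding protein of neurons, was at 5.77 and 18.1 in RetCFP/+ and at 0.489, 1.78 and 2.16 in RetCFP/CFP (log2 change -2.04, SE 0.398, adjusted p 0.0281). Chrna3, a nicotinic receptor subunit, fell by 1.64 (SE 0.334, adjusted p 0.0300), from 1.42 and 5.04 to 0.0840, 0.0979 and 0.170. The neuropeptide gene Gal fell by 1.63 (SE 0.368, adjusted p 0.0487), from 1.06 and 4.27 to 0.142 in 1 plate and a listing at 0 in 2, and lost its call in 13 of 20 alternatives. Cpe (-1.28, adjusted p 0.0496), Serpini1 (-1.27, adjusted p 0.0259) and the small RNA host gene Snhg9 (-1.47, adjusted p 0.0159) were the remaining named genes. Of 14 neuronal genes tested, 2 (Elavl4 and Chrna3) were called, both lower, beside 0.448% of all genes, and 13 had a negative value with a median of -0.48. In the other progenitor/glia cells 11 of these 14 had a positive value, with a median of 0.38 and 1 called, Dpysl3, higher, beside 0.253% of all genes. Snhg9 overlaps the antisense gene Rps2.

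The same genes were compared in the other progenitor/glia cells, over 4 plates of each genotype. There, 26 genes (0.507%) were called, 13 higher (0.253%) and 13 lower (0.253%). Without the block the count was 11. Without RetCFP/CFP male replicate 1 it was 16, without RetCFP/+ male replicate 2 it was 13, and without RetCFP/CFP female replicate 2 it was 8. Myl9 rose by 1.77 (SE 0.270, adjusted p 0.00635), from 0.411, 0.426, 0.4659 and 0.753 to 2.47, 2.79, 5.23 and 7.57, with no overlap, and was the single marker called there. The other 8 markers were between 0.25 and 1.11 (Adamts1 and Postn), among them Cnn2 at 1.07 (adjusted p 0.0542) and Ccnd2 at 0.70 (adjusted p 0.111).

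Anxa2 (1.49, adjusted p 0.0111), Anxa5 (1.09, adjusted p 0.00490), Col3a1 (0.90, adjusted p 0.0220), Epb41l3 (0.89, adjusted p 0.0111) and Fam198b (0.91, adjusted p 0.0220) passed the test inside and outside cluster 1. Ret, Gsta4 (-1.27, limma adjusted p 0.000725), Hes1 (-1.13, adjusted p 0.000725) and Gal (-2.96, adjusted p 6.68e-05) fell in both. Outside the cluster Gal was above 1 transcript in only 46 of 273 RetCFP/+ and 7 of 173 RetCFP/CFP cells. Without the block the outside adjusted p in limma was 0.266 for Anxa5, 0.152 for Col3a1, 0.240 for Epb41l3 and 0.109 for Fam198b. Of 20 named genes called outside, 9 lost the call without the block and 14 in batch HD02 alone, and Ret alone kept it in every alternative that tested it. Other genes passed outside and not inside, among them Ddc, an enzyme of amine synthesis (1.28, adjusted p 0.00188, against 0.19 inside), Pdpn (-1.19, against -0.60 inside), Dhrs3 (-1.56, against -1.39 inside) and Spry2, an inhibitor of receptor tyrosine kinase signalling (-0.71, adjusted p 0.0196, against -0.36 inside). With Ddc, all 4 sympathoadrenal genes tested had a positive value outside (median 0.81), though Ddc alone was called. Among them Isl1 was at 0.0865 to 4.07 in the RetCFP/CFP plates and 0 to 0.0547 in the RetCFP/+ plates, and the part of such cells in the Ddc result was not tested. Median detected genes per cell in batch HD02 were 6729.5 and 7055 in RetCFP/CFP and 6212 and 6360.5 in RetCFP/+ for the other cells, and 6580 and 6646 against 6439 and 6393 in cluster 1. With each cell scaled to the same total, 46 genes were called inside, 26 higher and 20 lower, and 36 outside, 14 higher and 22 lower.

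**Figure D5:**
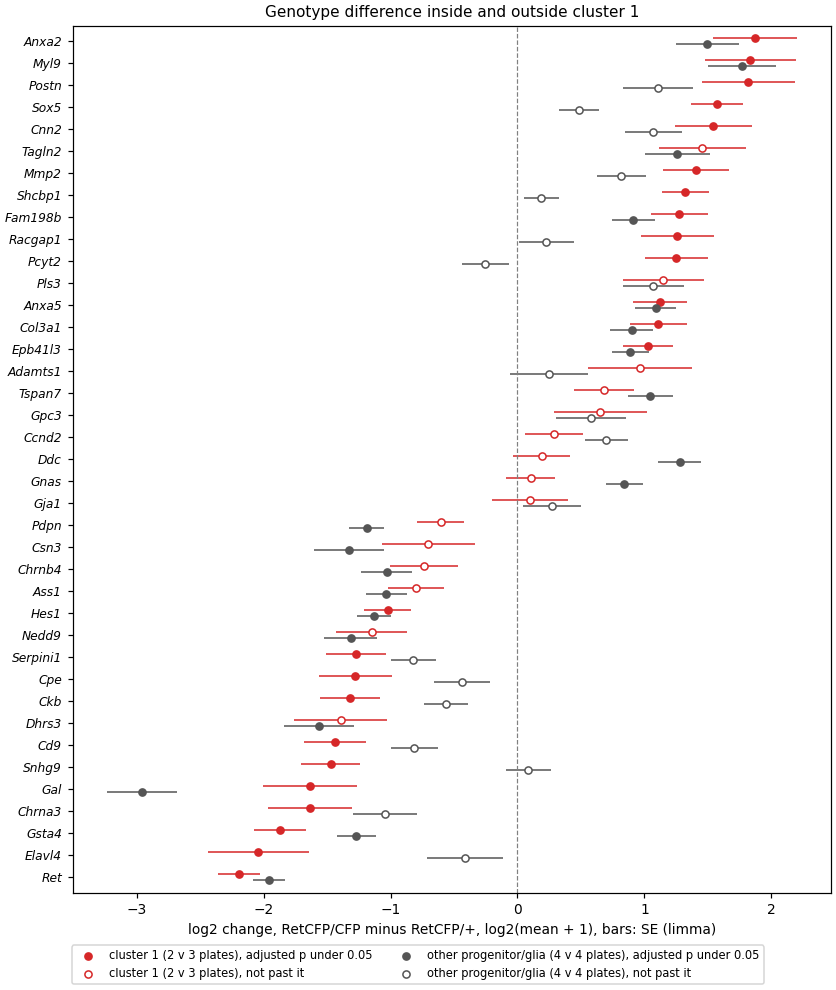
Log2 change between RetCFP/CFP and RetCFP/+ on the log2(mean + 1) scale with its standard error from limma (x axis) for the markers and the named genes (y axis), within cluster 1 (red) and in the other progenitor/glia cells (grey); filled points passed an adjusted p of 0.05. Myl9 and Ret lie close together in both groups of cells at 1.83 and 1.77 and at -2.20 and -1.96, and Sox5, Shcbp1 and Elavl4 lie further from 0 within cluster 1.

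Whether the genotype difference itself differed between cluster 1 and the other cells was tested directly. In limma 0 of 5131 genes (0%) passed the threshold, with 424 at an unadjusted p under 0.05, and 4 passed without the block. Among the genes called in either group of cells and named above, the largest differences were those of Elavl4 (-1.63, SE 0.507, adjusted p 0.4661), Snhg9 (-1.56, adjusted p 0.217), Pcyt2 (1.51, adjusted p 0.217), Gal (1.32, adjusted p 0.507), Shcbp1 (1.14, adjusted p 0.217), Sox5 (1.09, adjusted p 0.364) and Ddc (-1.09, adjusted p 0.415). For the markers the difference lay between -0.41 for Ccnd2 and 0.72 for Adamts1 (adjusted p 0.691 for Mmp2 to 0.989 for Myl9). With 2 and 3 plates inside the cluster, no gene was therefore shown to differ between genotypes in cluster 1 otherwise than in the other progenitor/glia cells.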

How the data were processed

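The values deposited by the authors, for 32350 genes in 1003 cells, are read here as estimated transcripts per cell, since each cell sums to the total of mRNAs given, per the file headers, in the cell table. How the authors made them is not given in the sources used here. The cell table deposited by the authors gives reads and detected genes as a count and aligned reads as a percent. The submitters' processing notes name HISAT2 2.0.1, SAMtools 1.2, Cufflinks 2.2.1 and build mm10 without roles. Levels were averaged over the cells of each plate and class, with at least 5 cluster 1 cells or 10 other cells per pool (3 for the description), which gave 13 pools. log2(mean + 1) was fitted with limma 3.58.1 in R 4.3.3: 4 means, batch as a block, sex, and a plate correlation of -0.05. The replicate numbers are the library batches of the labels, which pair plates across genotypes. Genes needed a pool mean of 1 in 2 pools (5131), and p-values were Benjamini-Hochberg adjusted over them. The fit was tested on simulated data.

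Named genes were the markers, Ret and CFP; the 12 higher and 8 lower genes with the largest within-plate difference of 1 sign in every plate; up to 10 called genes each way per genotype contrast; called list members or the 4 with the largest difference; and the 10 genes that best followed the marker mean. Members and lists were chosen with earlier results of these data known. Whether plates are separate embryos is a deduction, so p-values measure the spread between plates. Wells with 2 cells (11, none in cluster 1) were kept, no doublet caller was run, and cells with fewer than 100000 reads (3 in cluster 1) were kept. Coordinates are GENCODE vM21 gene intervals (GRCm38). Promoters are RefSeq windows of GRCm38.p6. Scripts used Python 3.11.15 and scipy 1.17.1. The alternatives changed the batch term, the batches used, scaling, pseudocount, level filter, minimum cells, the plate correlation, sex, doubtful wells or cells, and each plate in turn. Some genes that the rule names are not reported here.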

Additional observations from a re-analysis of the deposited data

Results flagged for a closer look

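Single plates stood apart from the others of their group in 2 of 83 groups examined, where chance gives about 1 in 20. Among the RetCFP/+ plates, Myl9 in the other progenitor/glia cells was highest in RetCFP/+ male replicate 2, at 0.753 transcripts per cell against 0.411 to 0.4659 in the other 3. The difference of Prc1 between cluster 1 and the other cells was smallest in RetCFP/CFP male replicate 1, at -0.62, against a mean of -1.93 over 6 plates.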

How the results depend on the processing

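The genes called in cluster 1 (61) became 2 with no replicate block, 2 in batch HD02 alone, 38 with no filter on low values, 12 with a pool mean of at least 5 and 39 with pools of at least 3 cells, and ranged from 3 to 235 when single plates were left out. Those called outside it (26) became 11 with no replicate block, 7 in HD02 alone, 1 with no filter and 8 with the filter of 5, and ranged from 8 to 32. Genes whose genotype difference differed (0) became 4 with no replicate block and 2 with no filter, and ranged from 0 to 1. The other alternatives kept each count within 1.5 times. Genes of 1 sign in every plate (377) became 913 in HD02 alone, where 4 plates must agree, and 532 to 606 without single plates, where 5 must. The Postn difference reversed in HD02 alone (-0.12). The difference in share (22.4 percentage points) was 18.1 as a share of all cells of a plate, and 14.3 to 28.9 without single plates. Of 20 named or marker genes called in cluster 1, 2 never lost their call and the others lost it in 3 to 14 of up to 20 alternatives. Where the text gives no reason, the cause was not tested. Pools of 6 and 7 cells limit the RetCFP/+ side, and where 1 such pool is left out it is assumed that the lone pool varies like the others.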

Other observations

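Some further genes and lists were read within plates. Meg3, an imprinted long non-coding RNA, was at 0.395 ± 0.250 transcripts per cell in cluster 1 and 3.74 ± 2.37 in the other progenitor/glia cells (SD, 6 plates), lower in 6 of 6 plates, whereas the imprinted Mest was higher in 6 of 6. Of the 14 genes of the imprinted growth network 7 passed the level filter, with a median difference of -0.16. Id3, a transcriptional inhibitor downstream of BMP signals, was at 12.99 ± 4.65 against 9.71 ± 3.57 and higher in 5 of 6 plates. Heat shock and immediate early genes showed no difference of 1 sign in every plate (4 of 19 passed), with Hsp90aa1 at 58.5 ± 4.82 against 58.2 ± 11.9. The authors' predicted subtypes of the 75 cells were ENTG4 in 27, ENTG2 in 19, ENTG7 in 15, ENTG5 in 11 and ENTG3, ENTG6 and ENT9 in 1 each.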
